A study of Mus musculus with 4 samples.

Results

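The genes described here are 35 genes of the meiotic chromosome and of meiotic recombination, taken by symbol from a table of 22396 named genes, and all 35 were found in it. They code for the synaptonemal complex (8 genes), the HORMA domain axis proteins with their remodeller (3), the meiosis-specific cohesin subunits (4), break formation (5), strand exchange (5), crossover formation (5), meiotic RNA regulation (2) and the attachment of telomeres to the nuclear envelope (3). Tex11, which is needed for both synapsis and crossovers, was counted with the synaptonemal complex. Ribosome-protected fragments were sequenced from THY1-positive mouse testis cells, about 1000 per sample, in 2 samples labelled as Ddx20 knockout and 2 labelled as controls, which are littermates. DDX20, also called Gemin3, is an RNA helicase that works with the SMN protein, and the study's subject is the passage of prospermatogonia to spermatogonial stem cells. The labels used here state no age, strain or driver of the knockout, and no label says whether the samples came from separate animals, so the p-values measure the spread between these samples.

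Meiosis begins with a round of DNA replication in which meiosis-specific cohesins join the sister chromatids. Chromosome axes form on these cohesins, SPO11 cuts the DNA, recombinases search the homologous chromosome for a repair template, and the synaptonemal complex zips the paired homologues together while some of the repair sites become crossovers. Many of these genes are already transcribed in spermatogonia, before meiosis starts. In spermatogonia and somatic cells a number of them are held down by a repressor complex that contains E2F6 and MGA, and they are activated by STRA8 and MEIOSIN at meiotic entry.

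For each gene the authors deposited a mean level and the result of 1 comparison. From these means whole reads could be recovered for 4 libraries, called A to D here, with 941014, 789570, 282722 and 221439 reads. Negative fold changes belong to genes that were higher in libraries A and B, and positive ones to genes that were higher in C and D, but which pair came from the knockout is not stated. A gene that fell was therefore lower in C and D, a gene that rose was higher there, and every direction would turn with the opposite assignment. Normalised reads are reads divided by the authors' size factor of the library, which was 1.72 for A, 1.41 for B, 0.750 for C and 0.591 for D. Ddx20 itself had 287 and 244 reads in A and B and 32 and 30 in C and D, and fell by 1.83 on the log2 scale (log2 fold change -1.83, standard error, SE, 0.243, Benjamini-Hochberg adjusted p = 4.07e-13, authors' deposited table). Counts of A and B differed by less than the sampling noise (chi-square per degree of freedom 0.968, p = 0.983, over 8678 genes), whereas C and D differed by more (1.11, p = 3.34e-10, over 7328 genes). Whether A and B are separate preparations or 1 library in 2 parts cannot be told from these values, and in the second case the spread on that side, on which every deposited p rests in part, is counting noise alone. The authors' test used A and B as separate libraries. Counted as 1 sample in limma on the recovered reads, they gave 18 members that fell and 6 that rose, against 27.3% and 39.5% of 14470 genes. With A and B kept apart, limma called 19 members lower and 6 higher, against 28.8% and 40.9% of the same genes. Thy1 had 18, 15, 1 and 3 reads in A to D and did not pass (Benjamini-Hochberg adjusted p = 0.156, authors' deposited table).

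Cell markers and reads on unrelated genes also differed between the sides. A list of 30 germ cell markers took 1.06% and 1.07% of the reads of A and B and 0.344% and 0.318% of those of C and D. Of the 30, 24 fell and 1 rose, against 18.8% and 26.9% of all tested genes. In a bulk sample, fewer germ cells and fewer protected fragments per germ cell cannot be told apart. Each share also depends on the other reads of its library. Receptor genes of the nose, which are expressed chiefly in the olfactory epithelium and the vomeronasal organ, took 0.00457% and 0.00469% of the reads of A and B and 0.806% and 0.899% of those of C and D. The median over these 1547 genes was 1 read per gene in each of C and D and 0 in each of A and B, and 482 of them had no read in C and 535 in D. Of 20 markers of later spermatocytes and spermatids, 8 were at 0 in each of A and B, among them the sperm genes Catsper1, Adam2 and Prm2, which had 18, 9 and 4 reads in C and 11, 9 and 5 in D. The whole list took 0.0260% and 0.0280% of A and B and 0.0722% and 0.0560% of C and D. Of 12 muscle genes 10 rose and 0 fell, and their share was 0.0197% and 0.0190% in A and B and 0.309% and 0.334% in C and D. Sertoli cell markers took 0.0484%, 0.0458%, 0.0407% and 0.0515% of A to D, Leydig and peritubular markers 0.0287%, 0.0298%, 0.0587% and 0.0709%, endothelial markers 0.0215%, 0.0220%, 0.0679% and 0.0614%, and macrophage markers 0.0391%, 0.0379%, 0.0757% and 0.0754%. The part of these differences in the results below was not tested.

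Among the 35 genes, 15 fell, 4 rose, 15 did not pass an adjusted p of 0.05, and 1 (Spata22) had no adjusted p in the authors' deposited table. Of all 17347 genes with an adjusted p in that table, 18.8% fell and 26.9% rose. The median log2 fold change was -0.86 over the 34 tested members, against 0.38 over all tested genes, in the authors' deposited table. The share of genes called in each direction differed with level throughout the table. The tested genes were divided into 4 bins of equal size by their mean. In the bin with the highest means, 61.2% of all genes fell, and so did 10 of the 11 members there. In the next bin 13.3% of all genes fell and 28.7% rose, against 5 and 2 of 10 members. In the 2 lower bins, where 0.623% and 0.0% of all genes fell, 0 of 13 members fell and 2 rose, while 44.6% and 22.5% of all genes rose there.

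**Figure D1:**
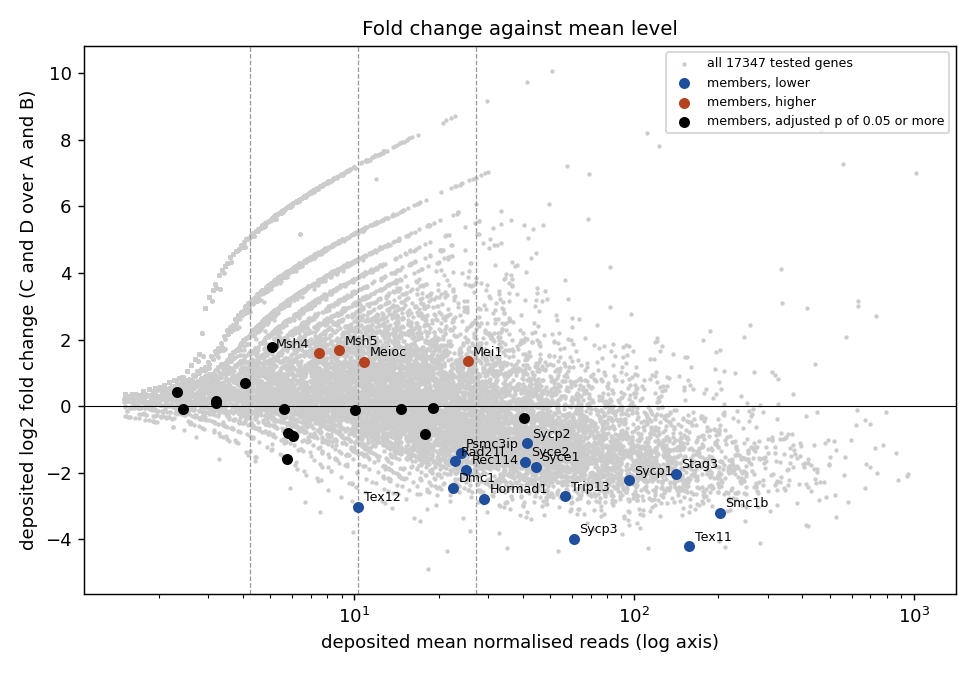
Deposited log2 fold change (C and D over A and B) against the deposited mean of normalised reads, on a log axis, for all 17347 tested genes (grey) and the 34 tested members (coloured), with dashed lines between the 4 bins by mean. The 15 members that fell lie at means of 10.3 and above, and the 4 that rose lie between 7.47 and 25.4.

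The members that fell had 224 reads in the median gene, summed over all libraries, those that rose 34.5, and those that did not pass 31. Together the 15 that fell took 0.297% of the reads of library A (95% Wilson interval 0.286 to 0.308) and 0.313% of library B (0.301 to 0.326), but 0.0782% of library C (0.0685 to 0.0892) and 0.0623% of library D (0.0528 to 0.0736). The 4 that rose took 0.00457% of A (0.00339 to 0.00615) and 0.00418% of B (0.00298 to 0.00587), against 0.0237% of C (0.0187 to 0.0301) and 0.0194% of D (0.0144 to 0.0262). These intervals cover counting error only. The order of the libraries in these sums follows from the calls that formed the groups. All 35 members together took 0.332% of A (0.320 to 0.343), 0.346% of B (0.334 to 0.360), 0.141% of C (0.128 to 0.156) and 0.111% of D (0.0981 to 0.126). The other 16 members took 0.0300% and 0.0293% of A and B and 0.0393% and 0.0294% of C and D, so their summed share in D was close to that in A and B. Normalised reads were below both A and B in both C and D for 21 members and above them for 7, against 30.8% and 53.9% of all tested genes with recovered reads.

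**Figure D2:**
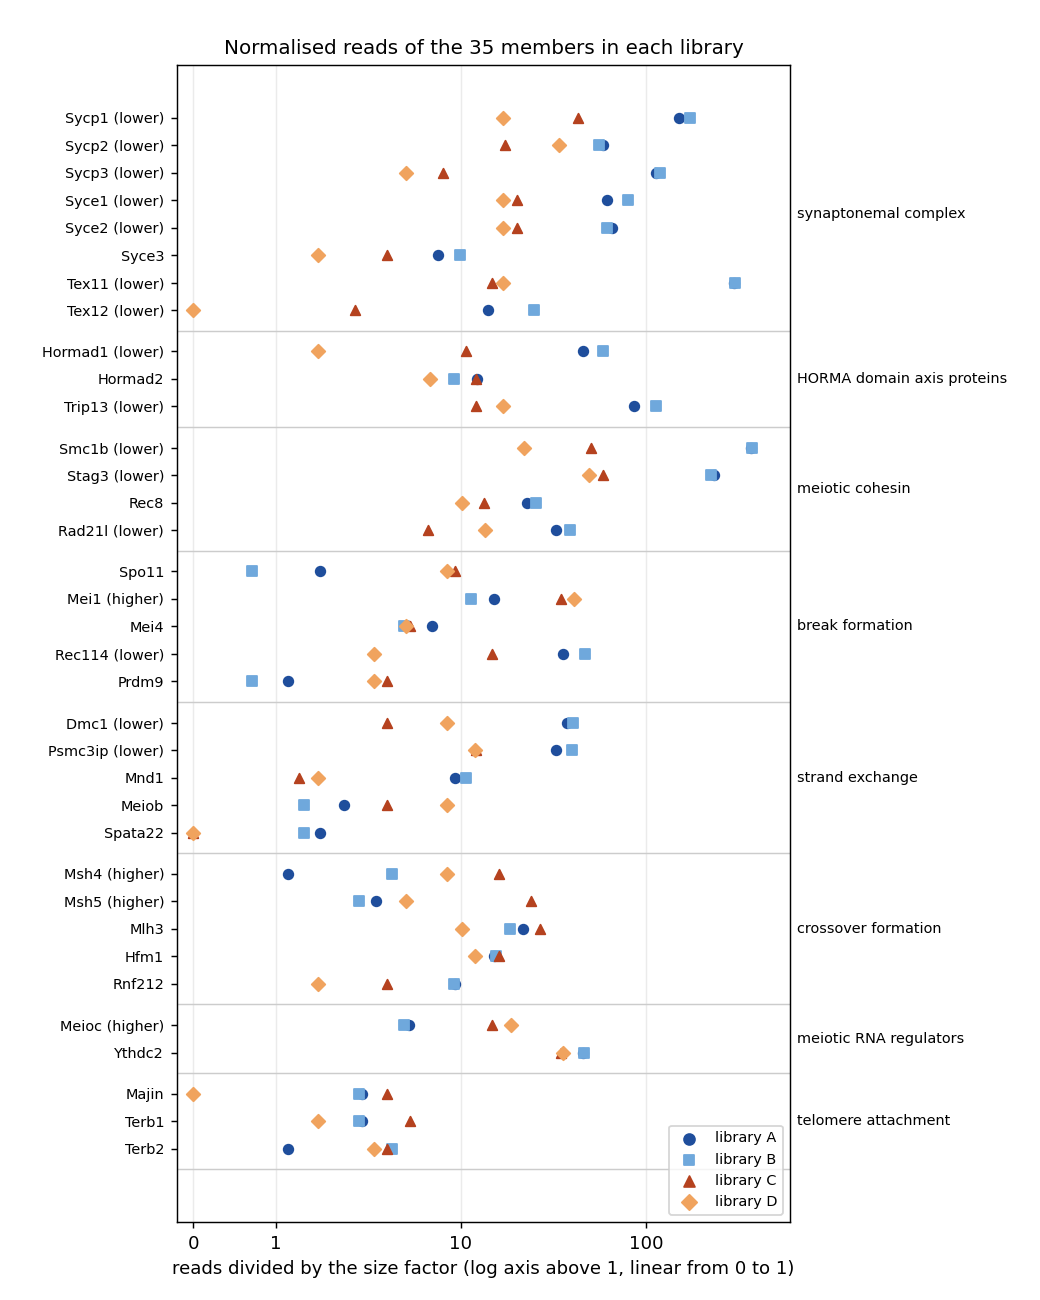
Normalised reads (reads divided by the size factor of the library, log axis above 1) of each of the 35 members in libraries A to D, grouped by role, with the direction in brackets where the adjusted p was under 0.05. In the synaptonemal complex and cohesin groups all C and D points lie left of the A and B points, while in the break and crossover groups the order varies from gene to gene. C and D were both below A and B in 30.8% of all tested genes and in 74.5% of those in the bin with the highest means. That bin holds 6 of the 8 synaptonemal complex genes and 2 of the 4 cohesin genes.

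Promoters are shown for 5 of the members that fell, of which 4 hold at least 1 of the elements searched for and Dmc1 holds none, to show how these windows differ. RefSeq promoter windows (build GRCm38.p6, from 250 bases before to 50 bases after the start site) were matched by symbol for 29 of the 35 members. For 6 of the 29 (Mei1, Msh4, Rad21l, Rec114, Spata22 and Stag3) the window lies at a start site more than 1000 bases inside the annotated span of the gene, so it describes an internal start, and none of these is shown. Searched on both strands were GCGGGAA, an E2F-type element, CACGTG, an E-box of the kind that MGA with MAX binds, and CNCCTCAG, an element of the STRA8 and MEIOSIN type. Capitals mark the matches, which do not overlap one another in these 5 windows.
Sycp3, chr10:88459337-88459636, plus strand: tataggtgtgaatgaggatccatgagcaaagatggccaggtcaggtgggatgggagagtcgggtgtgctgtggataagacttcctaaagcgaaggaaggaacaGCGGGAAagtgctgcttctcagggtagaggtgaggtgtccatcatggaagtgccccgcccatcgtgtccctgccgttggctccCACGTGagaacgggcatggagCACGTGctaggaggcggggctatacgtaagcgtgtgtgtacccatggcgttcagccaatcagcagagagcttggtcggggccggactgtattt
Hormad1, chr3:95559427-95559726, plus strand: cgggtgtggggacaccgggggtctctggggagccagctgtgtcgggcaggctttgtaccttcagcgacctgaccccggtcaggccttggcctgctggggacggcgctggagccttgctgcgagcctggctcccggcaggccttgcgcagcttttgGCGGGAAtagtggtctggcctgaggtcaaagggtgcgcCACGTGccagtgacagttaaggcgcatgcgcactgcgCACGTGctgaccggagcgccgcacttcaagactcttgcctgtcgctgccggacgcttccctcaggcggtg
Smc1b, chr15:85131908-85132207, minus strand: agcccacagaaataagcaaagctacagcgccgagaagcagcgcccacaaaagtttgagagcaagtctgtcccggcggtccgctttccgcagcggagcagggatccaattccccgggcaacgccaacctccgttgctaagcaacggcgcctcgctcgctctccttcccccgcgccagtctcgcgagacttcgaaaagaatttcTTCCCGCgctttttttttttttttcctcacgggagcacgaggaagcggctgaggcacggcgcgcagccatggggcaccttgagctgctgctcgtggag
Tex12, chr9:50561219-50561518, minus strand: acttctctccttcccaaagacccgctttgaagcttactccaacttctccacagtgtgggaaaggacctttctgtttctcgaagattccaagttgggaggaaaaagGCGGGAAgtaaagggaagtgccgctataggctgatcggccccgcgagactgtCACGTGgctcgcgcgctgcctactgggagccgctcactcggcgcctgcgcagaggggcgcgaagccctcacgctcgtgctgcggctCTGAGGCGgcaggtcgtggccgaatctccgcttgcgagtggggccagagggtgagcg
Dmc1, chr15:79605060-79605359, minus strand: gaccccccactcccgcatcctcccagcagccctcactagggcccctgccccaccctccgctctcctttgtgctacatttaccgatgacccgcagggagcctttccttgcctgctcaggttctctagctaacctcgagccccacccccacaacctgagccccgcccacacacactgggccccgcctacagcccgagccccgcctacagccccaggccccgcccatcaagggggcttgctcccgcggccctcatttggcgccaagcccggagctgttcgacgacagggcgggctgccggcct

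Sycp3 and Hormad1 each hold 1 E2F-type element (first base at -147 and -95 from the start site) and 2 E-boxes (at -64 and -43, and at -57 and -20). Smc1b holds an E2F-type element at -48. Tex12 holds all 3 elements, at -145, -93 and -7. The E2F-type element was present in 12 of the 29 member genes (41.4%), against 5.29% of all 27025 genes with such a window. The E-box was present in 8 (27.6%, against 8.09%) and the STRA8 and MEIOSIN type in 7 (24.1%, against 9.12%). These windows are also rich in CG: the median number of CG dinucleotides was 18 in members and 7 in all genes. Among the 14 members that fell and had a window, 7 held the E2F-type element, 7 the E-box and 3 the STRA8 and MEIOSIN type, and 6 (Dmc1, Psmc3ip, Rad21l, Syce1, Sycp2 and Trip13) held none of the 3. Among the 10 members that did not pass and had a window, 2 held the E2F-type element, 1 the E-box and 3 the STRA8 and MEIOSIN type. Of all tested genes that fell, 12.8% held the E2F-type element and 14.0% the E-box, with a median of 23 CG dinucleotides. Of the 4 members that rose, 2 (Msh5 and Meioc) held the E2F-type element and 0 the E-box. The windows at internal starts named above were kept in all these counts. Among the members that fell, Rec114 and Stag3 each hold an E2F-type element and an E-box in such a window. Mei1 and Msh4, which rose, hold none of the 3 elements there. A match describes letters in a window and does not show binding.

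Of the 8 synaptonemal complex genes, 7 fell and 0 rose, and 6 of the 7 lie in the bin with the highest means, where 61.2% of all genes fell. Sycp3, a filament protein of the lateral element, had 112 and 119 normalised reads in A and B and 7.997 and 5.08 in C and D. It fell by 3.99 on the log2 scale (SE 0.516, Benjamini-Hochberg adjusted p = 1.58e-13, authors' deposited table). Tex11, an X-linked gene needed for synapsis and crossovers, had 298 and 301 normalised reads in A and B against 14.7 and 16.9 in C and D. Among the 35 genes it had the lowest value (-4.21, SE 0.341, Benjamini-Hochberg adjusted p = 4.15e-33, authors' deposited table). Sycp1, the transverse filament that spans the gap between the homologues, had 149.5 and 173 normalised reads in A and B and 42.7 and 16.9 in C and D (-2.22, SE 0.558, Benjamini-Hochberg adjusted p = 8.27e-05, authors' deposited table). For these 3 genes the sides lie far apart, although C and D differed from each other for Sycp1. All 3 lie in the bin with the highest means, and C and D were both below A and B in 74.5% of all genes there.

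Of the other 5 axis and central element genes, 4 fell. Sycp2, the axis partner of SYCP3, had 58.8 and 55.9 normalised reads in A and B and 17.3 and 33.8 in C and D. It fell by 1.11 (SE 0.367, Benjamini-Hochberg adjusted p = 0.00464, authors' deposited table), the smallest fall among the 15. Syce1, a central element protein, had 61.7 and 79.9 normalised reads in A and B and 20.0 and 16.9 in C and D, and it fell by 1.82 in the authors' deposited table (at a Benjamini-Hochberg adjusted p = 7.14e-06). Syce2, which forms long fibres with TEX12 in the central element, had 65.2 and 61.5 normalised reads in A and B against 20.0 and 16.9 in C and D, and it fell by 1.66 in the authors' deposited table (at a Benjamini-Hochberg adjusted p = 4.96e-05). In none of these 3 genes did the sides overlap. All 3 lie in the bin with the highest means, where C and D were both below A and B in 74.5% of all genes. Tex12 itself had 24 and 35 reads in A and B and 2 and 0 in C and D, and it passed (Benjamini-Hochberg adjusted p = 0.00704, authors' deposited table). Its pooled ratio was 0.0792 with a counting interval of 0.00937 to 0.299. A pooled ratio sets C and D over A and B, with the summed reads of a side divided by its summed size factors. Syce3, a small central element protein, had 13, 14, 3 and 1 reads in A to D and did not pass (-0.81, Benjamini-Hochberg adjusted p = 0.243, authors' deposited table). For Sycp2 limma on the recovered reads gave a log2 fold change of -1.26 with all libraries, -0.74 without library C, -1.68 without library D and -0.70 with library totals.

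Of the 3 genes around the HORMA domain proteins, 2 fell, and both lie in the bin with the highest means, where 61.2% of all genes fell. Hormad1, which loads on unsynapsed axes and supports break formation, had 45.4 and 58.7 normalised reads in A and B against 10.7 and 1.69 in C and D (-2.78, SE 0.583, Benjamini-Hochberg adjusted p = 4.82e-06, authors' deposited table). Library D held 1 read of Hormad1, and limma on the recovered reads gave a log2 fold change of -3.23 with all libraries, -4.34 without library C and -2.18 without library D. Trip13, the ATPase that strips HORMA domain proteins from synapsed axes and that also acts in the spindle checkpoint of mitosis, had 85.5 and 112 normalised reads in A and B against 12 and 16.9 in C and D, and it fell by 2.702 in the authors' table as deposited (SE 0.403, Benjamini-Hochberg adjusted p = 9.23e-11). Hormad2, the paralogue that marks unsynapsed chromosomes, did not pass, and it lies in the second lowest bin, where 0.623% of all genes fell. It had 12.2 and 9.19 normalised reads in A and B and 12 and 6.77 in C and D, so the sides overlap (-0.11, Benjamini-Hochberg adjusted p = 0.861, authors' deposited table).

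All 4 meiotic cohesin genes had lower normalised reads in both C and D than in A and B, as did 30.8% of all tested genes and 74.5% of those in the bin with the highest means, which holds Smc1b and Stag3. Of the 4, 3 passed. Smc1b, the meiosis-specific SMC1, had the most reads of the 35 genes, with 367 and 372 normalised reads in A and B and 50.6 and 22.0 in C and D (-3.20, SE 0.483, Benjamini-Hochberg adjusted p = 7.91e-11, authors' deposited table). Stag3, the meiosis-specific STAG subunit, had 232 and 223 normalised reads in A and B and 58.6 and 49.1 in C and D (-2.04, SE 0.222, Benjamini-Hochberg adjusted p = 6.07e-19, authors' deposited table). Rad21l, a kleisin that acts between homologues, had 32.6 and 38.9 normalised reads in A and B against 6.66 and 13.5 in C and D (-1.66, SE 0.547, Benjamini-Hochberg adjusted p = 0.00292, authors' deposited table). The other kleisin, Rec8, which holds sister chromatids together until the second division, had 22.7 and 25.5 normalised reads in A and B and 13.3 and 10.2 in C and D. Its difference did not pass (-0.83, SE 0.529, Benjamini-Hochberg adjusted p = 0.123, authors' deposited table), although limma with the same size factors called it lower.

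A ratio to the mitotic counterpart within a library does not depend on how libraries are scaled. Smc1b had 211 and 202 reads for every 100 reads of Smc1a, the mitotic subunit, in A and B, but 84.4 and 36.1 in C and D. The log2 ratio was lower by 1.72 (difference -1.72, 95% counting interval -2.24 to -1.19) on the C and D side. Stag3 against Stag2 stood at 216 and 215 per 100 in A and B, against 119 and 112 in C and D (difference -0.89, counting interval -1.42 to -0.37). Against Stag1, the other mitotic STAG subunit, Stag3 stood at 111 and 101 in A and B and 113 and 96.7 in C and D, so these sides overlap (difference 0.00, counting interval -0.50 to 0.49). Rec8 stood at 4.48 and 4.47 reads per 100 of the mitotic kleisin Rad21 in A and B, against 12.2 and 10.5 in C and D (difference 1.36, counting interval 0.54 to 2.18). The levels differ in this pair. Rec8 lies in a bin of means where the median log2 fold change of all genes was 0.16, and Rad21 in the highest, where it was -1.05. Whether the difference is particular to Rec8 was not tested. Rad21l against Rad21 overlapped, with 6.44, 6.83, 6.10 and 14.0 per 100 in A to D. Summed over 4 subunits each, meiotic cohesin stood at 65.6 and 61.1 reads per 100 mitotic reads in A and B and 47.8 and 37.6 in C and D (difference -0.55, counting interval -0.83 to -0.26). Smc1b gave 630 of the 1124 meiotic reads in A and 526 of 933 in B, against 38 of 97 in C and 13 of 56 in D. The sum therefore leans on this gene and does not describe every subunit. With 2 libraries a side the smallest p of an exact two-sided permutation test is 0.333, so none of these ratios could pass one, and the intervals cover counting error only. The mitotic genes fell as well: 13 of the 15 genes on the list of counterparts fell and 0 rose, and the authors' deposited table gives them a median of -2.03. Of the 15, 14 lie in the bin with the highest means, where 61.2% of all genes fell and the median was -1.05.

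**Figure D3:**
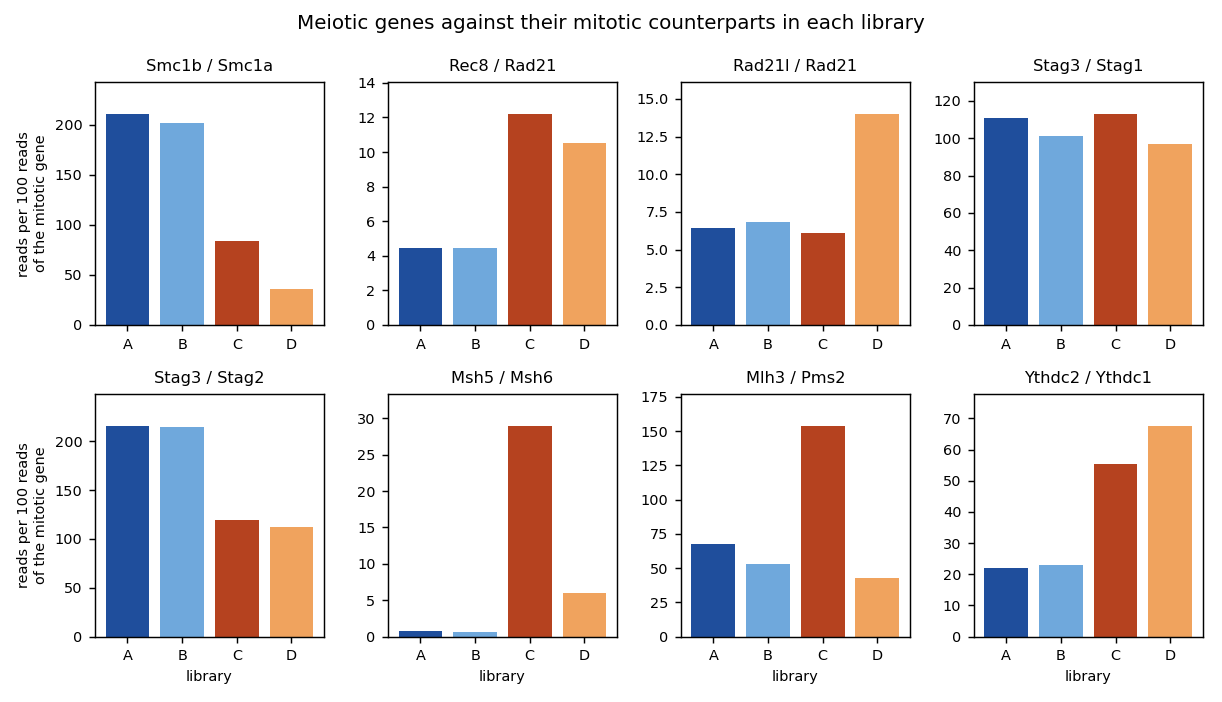
Reads of a meiotic gene for every 100 reads of a mitotic counterpart in the same library, for 8 pairs and libraries A to D (each panel has its own axis from 0). Smc1b over Smc1a and Stag3 over Stag2 are lower in C and D, Rec8 over Rad21, Msh5 over Msh6 and Ythdc2 over Ythdc1 are higher, and the other 3 pairs overlap.

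The 5 genes of break formation went in both directions. Rec114, part of the complex that lets SPO11 cut, had 35.5 and 46.7 normalised reads in A and B and 14.7 and 3.38 in C and D (-1.91, SE 0.547, Benjamini-Hochberg adjusted p = 0.000714, authors' deposited table). C and D differed from each other here, and limma on the recovered reads gave -2.23 with all libraries, -3.26 without library C and -1.40 without library D. Its partner Mei4 had 6.98 and 4.95 normalised reads in A and B and 5.33 and 5.08 in C and D, with overlapping sides (Benjamini-Hochberg adjusted p = 0.887, authors' deposited table). Mei1, also needed for breaks, rose: it had 15.1 and 11.3 normalised reads in A and B and 34.7 and 40.6 in C and D (1.36, SE 0.445, Benjamini-Hochberg adjusted p = 0.00330, authors' deposited table). In whole reads these were 26, 16, 26 and 24, about the same number in libraries of very different depth. Spo11, the enzyme that makes the breaks, had 3, 1, 7 and 5 reads in A to D and missed the threshold (Benjamini-Hochberg adjusted p = 0.0531, authors' deposited table). Prdm9, the methyltransferase that places the breaks, had 2, 1, 3 and 2 reads, a pooled ratio of 3.89 with a counting interval of 0.757 to 25.1.

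In strand exchange the recombinase Dmc1 and its cofactor Psmc3ip fell, and the other 3 genes had between 5 and 33 reads in all. Dmc1, the meiosis-specific recombinase, had 37.2 and 40.3 normalised reads in A and B and 4.00 and 8.46 in C and D (-2.45, SE 0.629, Benjamini-Hochberg adjusted p = 0.000147, authors' deposited table). Psmc3ip, the HOP2 protein that stimulates DMC1, had 32.6 and 39.6 normalised reads in A and B and 12 and 11.8 in C and D (-1.41, SE 0.505, Benjamini-Hochberg adjusted p = 0.00661, authors' deposited table). For both genes the sides lie apart, with C and D both below A and B, as in 30.8% of all tested genes. Both lie in the second highest bin of means, where 13.3% of all genes fell. Mnd1, the partner of PSMC3IP, had 16, 15, 1 and 1 reads in A to D, a pooled ratio of 0.151 with a counting interval of 0.0175 to 0.592, and missed the threshold (Benjamini-Hochberg adjusted p = 0.0822, authors' deposited table). Meiob and Spata22, which bind single-stranded DNA as a pair, had 4, 2, 3 and 5 reads and 3, 2, 0 and 0 reads.

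None of the 5 genes grouped here under crossover formation fell in the authors' deposited table, and 2 rose on few reads. Of the 5, 3 lie in the second lowest bin of means, where 0.623% of all genes fell. The other 2 lie in the next bin, where 13.3% fell. Tex11, also needed for crossovers but counted with the synaptonemal complex, lies in the bin with the highest means and fell in the authors' deposited table (-4.21). Msh4 had 2 and 6 reads in A and B and 12 and 5 in C and D, or 1.16, 4.24, 16.0 and 8.46 normalised reads (1.59, SE 0.986, Benjamini-Hochberg adjusted p = 0.0477, authors' deposited table). Msh5, with which MSH4 forms a clamp on recombination intermediates, had 6, 4, 18 and 3 reads, or 3.49, 2.83, 24.0 and 5.08 normalised reads (1.68, SE 0.914, Benjamini-Hochberg adjusted p = 0.0324, authors' deposited table). Library C carries most of the Msh5 reads on its side. With the deposited p-values adjusted over every gene, the Benjamini-Hochberg adjusted p was 0.0564 for Msh4 and 0.0501 for the RNA regulator gene Meioc, so neither passed. Limma on the recovered reads gave 2.35 for Msh4 and 1.90 for Msh5 with all libraries. Without library C neither passed (Msh4 1.94, adjusted p = 0.0765, and Msh5 0.75, adjusted p = 0.587), Msh4 was at 1.46 without library A and 3.13 without library B, and Msh5 was at 2.81 without library D. Msh5 had 0.762 and 0.628 reads per 100 reads of its homologue Msh6 in A and B, against 29.0 and 6.00 in C and D (difference 4.74, counting interval 3.62 to 5.86). Msh6, which acts in mismatch repair, fell by 2.42 in the authors' deposited table. The receptor genes of the nose, with a median of 1 read per gene in C and in D and 0 in A and B, were also higher in C and D, and so were 44.6% of the genes in the bin of means that holds Msh4.

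The other 3 crossover genes did not pass. Mlh3, an endonuclease subunit that resolves crossovers, had 21.5 and 18.4 normalised reads in A and B and 26.7 and 10.2 in C and D. Hfm1, a helicase needed for crossovers, was close to level, with 15.1, 15.6, 16.0 and 11.8. Rnf212, a ligase that marks crossover sites, had 16, 13, 3 and 1 reads. The Benjamini-Hochberg adjusted p-values of Mlh3, Hfm1 and Rnf212 were 0.907, 0.872 and 0.212 in the authors' deposited table. Limma with the authors' size factors called Rnf212 lower (-1.46), and likewise Syce3 (-1.35) and Mnd1 (-2.18). In limma with library totals Mnd1 passed, but Rnf212 and Syce3 did not. With library totals in place of the size factors the signs of Mlh3 and Hfm1 turned to 0.40 and 0.47, as did those of Hormad2 (0.43), Mei4 (0.48) and Ythdc2 (0.19), and none of these 5 passed in either form.

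The RNA regulators MEIOC and YTHDC2 act as a pair that lets germ cells leave the mitotic programme for meiosis. Meioc had 9, 7, 11 and 11 reads, or 5.24, 4.95, 14.7 and 18.6 normalised reads in A to D, and rose (1.34, SE 0.714, Benjamini-Hochberg adjusted p = 0.0424, authors' deposited table). Ythdc2 had 45.4 and 46.0 normalised reads in A and B and 34.7 and 35.5 in C and D, and did not pass (-0.34, SE 0.329, Benjamini-Hochberg adjusted p = 0.351, authors' deposited table). It was the one member of the bin with the highest means that did not fall. Ythdc1, the nuclear YTH reader of the same RNA mark, fell by 1.77 in the authors' deposited table, so that Ythdc2 went from 22.1 and 23.0 reads per 100 Ythdc1 reads in A and B to 55.3 and 67.7 in C and D (difference 1.42, counting interval 0.84 to 2.01). Majin, Terb1 and Terb2, which tether telomeres to the nuclear envelope, had 12, 14 and 13 reads over all libraries. Their sides overlap and none passed. For Majin the pooled ratio was 0.779 with a counting interval of 0.136 to 3.12.

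**Figure D4:**
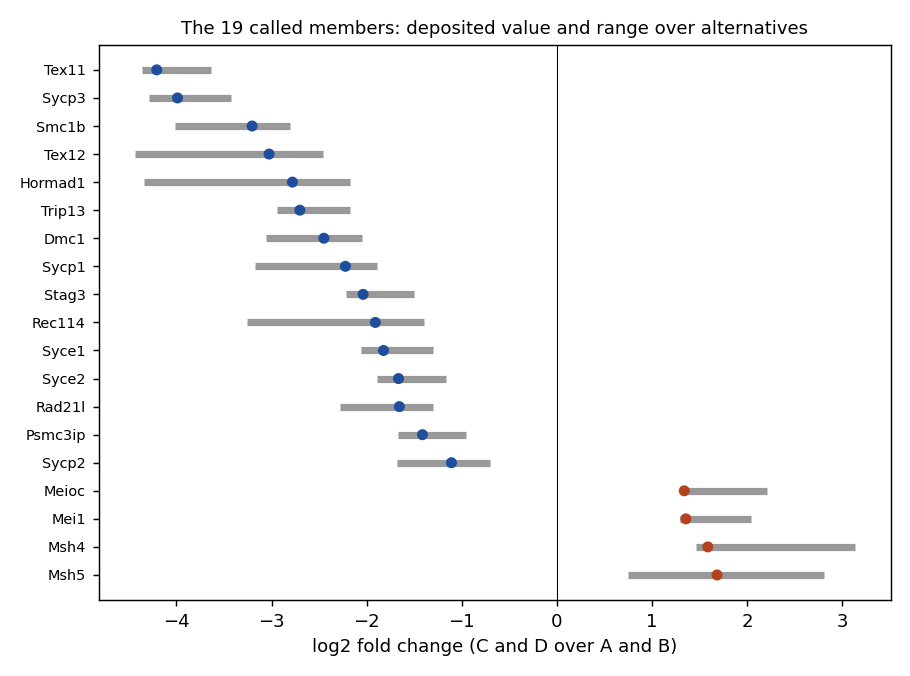
Deposited log2 fold change (points) of the 19 members with an adjusted p under 0.05, and the lowest to highest value over the alternative settings (grey bars). The bars of the 15 members that fell stay below 0 and those of the 4 that rose stay above it, with Msh5 reaching down to 0.75.

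Other meiosis genes outside the 35, of which 30 were found, had 12 lower and 5 higher in the authors' deposited table (median -0.20). Of all tested genes 18.8% fell and 26.9% rose. In the bin with the highest means 61.2% of all genes fell, and so did 9 of 9 of these genes. In the second lowest bin 44.6% of all genes rose, and so did 5 of 10 of these genes. With the smallest p were Tex15, which acts in silencing and recombination in the male germ line (-1.86, 783, 659, 94 and 74 reads in A to D), the piRNA helicase Mov10l1 (-2.17, 533, 479, 56 and 39 reads), Sgo2a, the shugoshin that protects cohesin at centromeres (-2.39, 254, 171, 16 and 17 reads), and Tex14, which keeps the bridges between germ cells open (-1.58, 311, 223, 40 and 34 reads), each with its log2 fold change from the authors' deposited table. The 5 that rose had between 16 and 34 reads in total and their adjusted p in the authors' deposited table was between 0.00850 and 0.0497. They were chosen for naming after their values were seen: Meiosin, Sycp2l, Gm960, Mcmdc2 and Mybl1. Stra8, the partner of MEIOSIN at meiotic entry, likewise named after its values were seen, had 160 and 158 reads in A and B and 22 and 7 in C and D.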

How the data were processed

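Each sample held about 1000 cells for ribosome profiling, per the labels' protocols. Trimmomatic 0.39, STAR 2.7.5c, StringTie 2.1.7, DESeq2, edgeR and the build mm10 are named per the submitters' processing notes, without the role of each. The deposited mean per gene is a signal averaged over libraries by the authors after division by size factors. Fold changes and their errors were deposited on the log2 scale by the authors. They appear shrunken: the p-value computed from their ratio was larger than the deposited one in 99.4% of genes. P-values, raw and adjusted, are those deposited by the authors. The 1 row without a gene name held 0.00475% of the summed means and was left out.

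The table has no column per sample. Each mean is a sum of whole reads times a fixed step per library, and whole reads in 4 libraries were solved for 20512 of 20515 rows with a mean above 0 (99.985%, relative tolerance 8e-15). In a test on 1887 made-up means 100% were recovered, and 500 real means moved by 1e-09 gave 0 solutions. Both checks were limited to lower means, and those of Smc1b (203) and Tex11 (158) lie above the limits. The 3 rows with several solutions had means from 560 to 1017. Libraries were tied to sides by genes with reads in 1 library alone, but to no sample label. The count test planned for a count table was replaced by the deposited comparison at an adjusted p of 0.05, with limma 3.58.1 (voom, R 4.3.3) on the recovered reads of genes with at least 10 reads as alternatives. No matched RNA was used, so translation and transcript level cannot be told apart, and without coding lengths no levels are compared between genes. Motifs were searched in RefSeq promoters.

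The 35 members and all lists were chosen with earlier results of these data known. Members with an adjusted p under 0.05 or at least 20 reads are given with values per library, and from each other list at most 4 genes with the smallest p are named, besides Ddx20, Thy1, the mitotic counterparts and 6 other meiosis genes named after their values were seen. The values of 2 of these counterparts are not reported here.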

Additional observations from a re-analysis of the deposited data

How the results depend on the processing

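No paired analysis was possible because the deposited columns carry no replicate numbers. The number of members that fell was 15 and lay between 15 and 19 in every alternative, and each of these 15 genes and Mei1 kept its call in all 15 alternatives run for it. The number that rose, 4, was 1 at an adjusted p of 0.01, 2 with adjustment over every gene, 1 with limma at no fewer than 50 reads, 7 with limma and no minimum, and 2 to 6 when 1 library was left out, with 2 without library C. The median log2 fold change of the members, -0.86 in the authors' deposited table, was -1.35 with limma and the authors' size factors, -1.53 with TMM factors, -1.35 with median-of-ratios factors, -1.31 with upper-quartile factors, -1.96 at no fewer than 50 reads, -1.34 with no minimum, -1.32 with A and B summed and -1.54 to -1.22 when 1 library was left out. In limma it was -0.80 with library totals and -0.86 without the 50 most abundant genes, so within limma the median depends on the scaling. The deposited and the limma median also differed at the authors' own size factors (-0.86 and -1.35). As the unshrunken ratio of mean normalised reads, an alternative chosen after seeing the data, the median was -1.38. The summed cohesin log2 ratio difference of -0.55 ranged from -0.76 without library C to -0.41 without library D. Single cohesin pairs lay between -1.72 (Smc1b over Smc1a) and 1.36 (Rec8 over Rad21). Signs of members that did not pass turned for Hormad2 (0.43 with library totals, 0.36 without the 50 most abundant genes, 0.06 without A, 0.19 without D), Mei4 (0.48 and 0.41 for the first 2 of these, and -0.29 without B to 0.17 without A), Mlh3 (0.40 and 0.33 for the first 2, -0.89 without C to 0.42 without D), Hfm1 (0.47 and 0.41, -0.30 without C to 0.09 without D) and Ythdc2 (0.19 and 0.13). Library totals shifted the log2 fold change of all genes by 0.56 and TMM factors by -0.17 against the authors' factors. The cause of these differences was not tested. Depth limits the genes under 20 reads, where 1 read in C or D changes a ratio strongly.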
